A study of Arabidopsis thaliana with 6 samples.

Results

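The genes described here are the 59 genes of the deposited Arabidopsis thaliana table, among 23640 features, whose description names a glutathione S-transferase. RNA was measured in 14-day-old seedlings of the Col ecotype, grown in vitro, in 3 libraries of atrx-1 mutant plants and 3 libraries of wild-type plants. ATRX encodes a chromatin remodeler of the SNF2 type, and the sources used here do not give the position of the atrx-1 lesion. Total RNA from whole seedlings had been depleted of ribosomal RNA, and how many plants went into a library is not stated. Because no label speaks of separate cultures, the p-values below cover only library-to-library spread, which may be technical. The single comparison, atrx-1 against wild type, asks how RNA levels differ when ATRX is disrupted.

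Glutathione S-transferases join the tripeptide glutathione to reactive or toxic small molecules, and the conjugates are then carried into the vacuole by ABC transporters. The plant-specific tau and phi classes handle herbicides, peroxides and defence compounds, and many of their genes are induced by wounding, pathogens or chemicals. The smaller theta, zeta and lambda classes and the dehydroascorbate reductases act on peroxides, tyrosine breakdown products, oxidised flavonols and the antioxidant ascorbate. Of the 59 genes, 28 belonged to the tau class (GSTU), 13 to phi (GSTF), 3 to theta (GSTT), 3 to lambda (GSTL) and 2 to zeta (GSTZ), while 3 encoded dehydroascorbate reductases (DHAR) and 1 TCHQD, a dehalogenase-like enzyme. The remaining 6 were a putative microsomal enzyme, AT1G65820, which belongs to a membrane protein family unrelated to the soluble enzymes, and 5 genes described only as family members.

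Several of these genes are near copies of each other, which bears on how reads are divided among them. By alignment of their coding sequences in the TAIR10.1 reference, 6 of the 59 were at least 90% identical to another member. The pair GSTF6 and GSTF7 was 94.3% identical, the pair GSTF2 and GSTF3 94.5%, and the pair GSTT2 and GSTT3 91.2%. The first 90 coding bases of the phi pairs are shown because GSTF2, GSTF6 and GSTF7 differed widely between mutant libraries (5′ to 3′, minus strand, differing bases in capitals). GSTF6 lies at chr1:662102-662191, GSTF7 at chr1:659616-659705, GSTF2 at chr4:1111442-1111531 and GSTF3 at chr2:852017-852106.
GSTF6: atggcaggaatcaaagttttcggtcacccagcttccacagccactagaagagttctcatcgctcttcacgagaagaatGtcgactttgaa
GSTF7: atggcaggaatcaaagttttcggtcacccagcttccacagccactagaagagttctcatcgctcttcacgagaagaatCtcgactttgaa
GSTF2: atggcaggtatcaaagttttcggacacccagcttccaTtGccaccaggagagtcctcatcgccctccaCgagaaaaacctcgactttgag
GSTF3: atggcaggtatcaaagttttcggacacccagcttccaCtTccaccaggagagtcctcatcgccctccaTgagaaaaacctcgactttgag
GSTF6 and GSTF7 differ at 1 of these bases and GSTF2 and GSTF3 at 3. Over the whole exons, 10.3% of the 50-base words of GSTF6 and 10.04% of those of GSTF7 also occur elsewhere in the genome, whereas none of GSTF2 or GSTF3 do. DHAR1 had the highest share, at 15.4%, and 8 of the 59 genes had any. Levels of genes with shared words or near copies are uncertain, since the sources do not say how reads with several matches were treated. The share of exact 50-base words is a guide and does not measure how large that uncertainty is. In the TAIR10.1 annotation 18 of the 59 genes overlap another gene, among them GSTF2 with AT4G02510 on the other strand. GSTU17 and GSTU18, on the same strand, also overlap there. On the table's coordinates they do not, since GSTU18 ends at 3396849 and GSTU17 starts at 3397081. Whether counting used the strand is unknown.

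Library totals ranged from 936243 to 14001726 counts, of which 371797 to 5635498 were nuclear, and the 59 genes together took 1374 to 19713 counts per library. The shallowest library, wild-type library 2, had 12 members at a count of 0, and 3 counts there correspond to 3.28 CPM, against 0.206 CPM in atrx-1 library 1. CPM is the count scaled to library size after TMM normalization, with organelle reads in the library size. ATRX itself was at 1.24, 0.721 and 1.91 CPM in atrx-1 libraries 1, 2 and 3 and at 4.82, 5.46 and 5.86 CPM in wild-type libraries 1, 2 and 3, with no overlap (log2 fold change -2.09 ± 0.38, SE, edgeR adjusted p = 0.0536). Leaf markers (RBCS1A, LHCB1.1, RCA) were present in every library, and flower markers (AP3, AG) were at or near 0. The leaf markers summed to 9741, 10341 and 8710 CPM in atrx-1 libraries 1, 2 and 3. In wild-type libraries 1, 2 and 3 they summed to 7189, 11016 and 10027 CPM. The sum of 5 root markers ranged from 1047 to 1287 CPM in atrx-1 and from 1192 to 1778 CPM in the wild type. Nearly all of that sum came from PYK10, at 1040.5, 1085 and 1281 CPM in atrx-1 and 1766, 1185 and 1419 CPM in the wild type. Since these are whole seedlings, fewer cells of a type and less RNA per cell cannot be told apart.

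A few genes supplied most of the family's RNA. Per kilobase of gene length, the 5 most abundant genes held 50.8% and the 10 most abundant 70.0% of the summed level. GSTU19 and GSTF9 stood first, at ranks 141 and 145 of 22845 nuclear features. GSTU19, a tau enzyme active towards many chemical substrates, was at 202, 200 and 176 CPM per kb in atrx-1 libraries 1, 2 and 3 and at 333, 216 and 245 CPM per kb in wild-type libraries 1, 2 and 3. GSTF9, a phi enzyme, was at 185, 188 and 197 CPM per kb in atrx-1 and at 286, 240 and 254 CPM per kb in the wild type. Both genes were lower in every mutant library than in any wild-type library, and the levels of GSTU19 and GSTF9 overlapped each other within both genotypes. GSTU20, which interacts with the jasmonate-conjugating enzyme JAR1 in far-red light signalling, followed at 94.8, 104 and 94.7 CPM per kb in atrx-1 and 124, 146 and 118 CPM per kb in the wild type. Its neighbours in the order of levels, DHAR1 (a dehydroascorbate reductase, mean 98.96 CPM per kb), the auxin-inducible GSTU5 (mean 88.1 CPM per kb) and GSTL3 (mean 78.2 CPM per kb), lay within the spread of one another in the wild type.

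**Figure D1:**
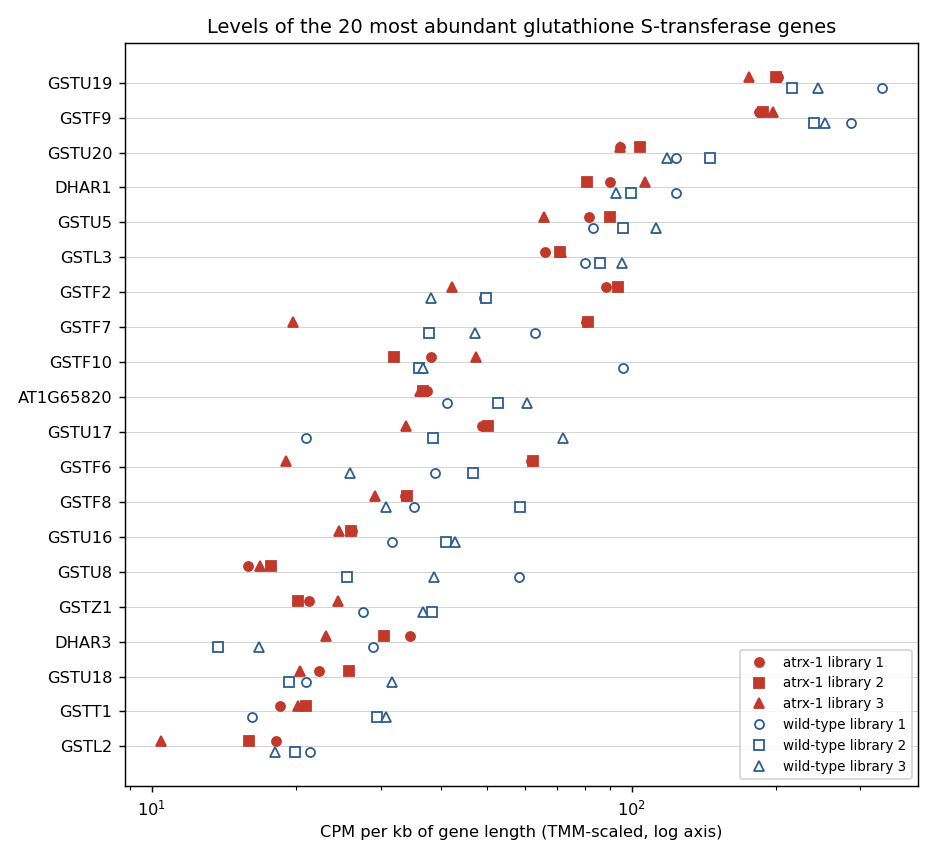
TMM-scaled CPM per kb of gene length (log axis) for the 20 most abundant members, in order of their mean; filled red symbols are the 3 atrx-1 libraries and open blue symbols the 3 wild-type libraries. GSTU19 and GSTF9 lie highest, and in GSTF2, GSTF6 and GSTF7 atrx-1 library 3 lies far to the left of atrx-1 libraries 1 and 2.

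Summed over the 59 genes, the level was 1353, 1363 and 1182 CPM in atrx-1 libraries 1, 2 and 3 and 1759, 1501 and 1545 CPM in wild-type libraries 1, 2 and 3. The mean was 1299 ± 102 CPM in atrx-1 and 1602 ± 138 CPM in the wild type (SD, n = 3 each), a log2 ratio of -0.30, with no overlap between the groups. As a share of nuclear counts the difference was smaller, at 0.336% ± 0.0287 in atrx-1 and 0.368% ± 0.0195 in the wild type (SD, n = 3 each), and the groups overlapped. Most of the gap in CPM lay in the tau class, which summed to 530, 541 and 481 CPM in atrx-1 and 790, 626 and 708 CPM in the wild type. Phi genes summed to 490, 494 and 363 CPM in atrx-1 and 571, 494 and 435 CPM in the wild type, and these groups overlapped.

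**Figure D2:**
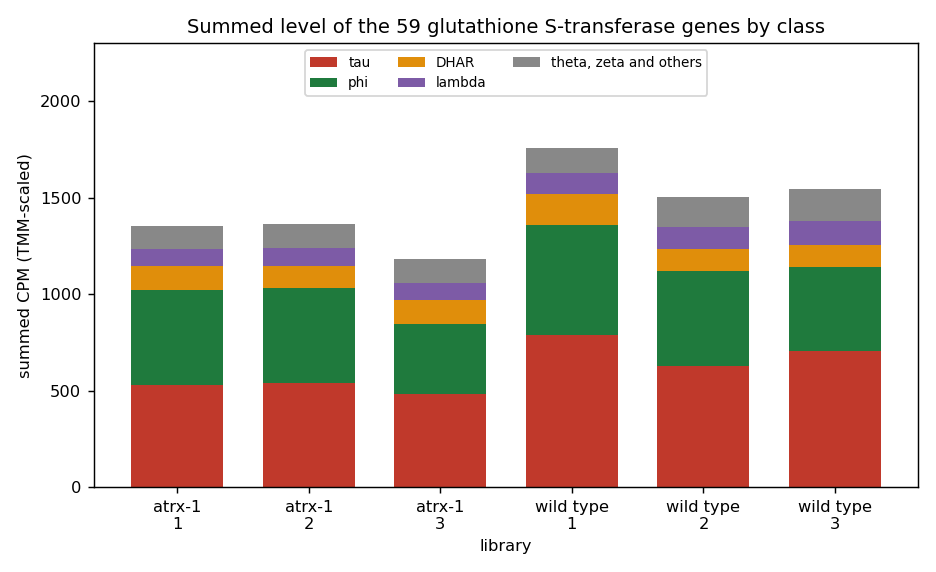
Summed TMM-scaled CPM of the 59 genes in each of the 6 libraries, stacked by enzyme class. The tau segment is 481 to 541 CPM in the 3 atrx-1 libraries and 626 to 790 CPM in the 3 wild-type libraries, and the phi segments overlap.

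Neighbouring genes differed widely in level. On the table's coordinates, 38 of the 59 genes lay within 10 kb of another member, in 13 tandem arrays. The array with the most genes, GSTU1 to GSTU7, spans 14.5 kb of chromosome 2 (12617936 to 12632473, TAIR10). Within it GSTU5 averaged 88.1 CPM per kb, the next highest gene, GSTU1, 7.74 CPM per kb, and GSTU3, with 3 reads in all, 0.176 CPM per kb. An array on chromosome 1 (29467437 to 29487906) holds GSTU19 and GSTU20 beside GSTU21, which had 1 read over all 6 libraries. On chromosome 1 (658657 to 666452), GSTF7 and GSTF6 averaged 54.9 and 42.4 CPM per kb, while their neighbours GSTF4 and GSTF5 averaged 2.25 and 0.152 CPM per kb.

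**Figure D3:**
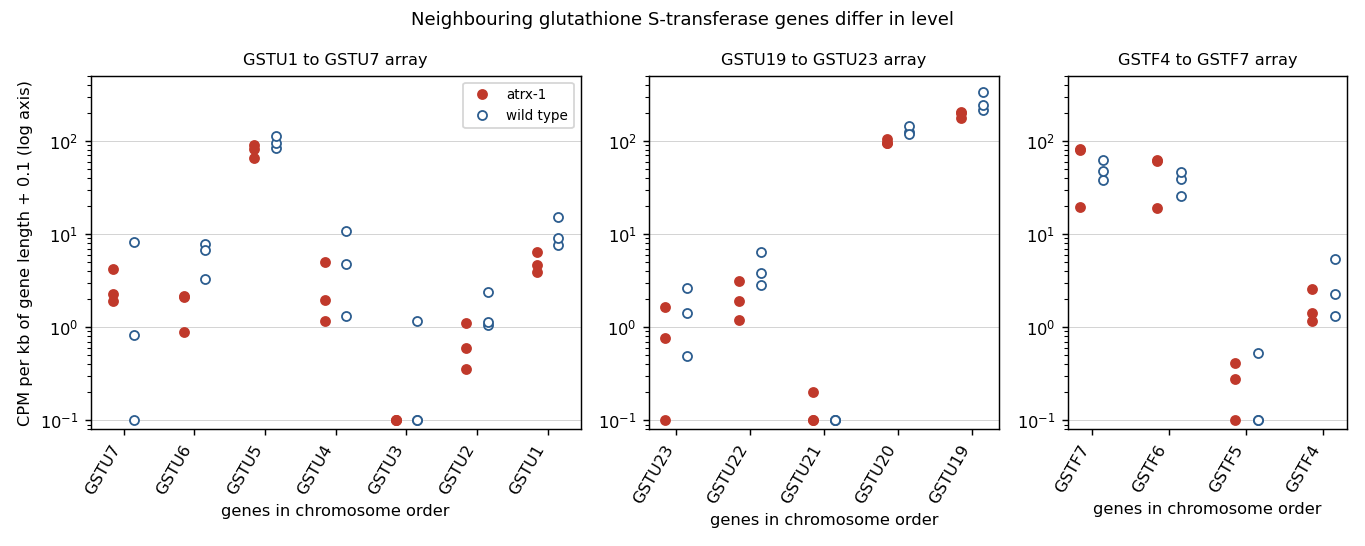
CPM per kb of gene length plus 0.1 (log axis) for the members of 3 tandem arrays in chromosome order; each filled red point is an atrx-1 library and each open blue point a wild-type library. In both genotypes GSTU5, GSTU19, GSTU20, GSTF6 and GSTF7 lie above every other gene of their arrays.

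Few reads came from the remaining genes. Of the 59, 46 had at least 1 read in every library, 1 (GSTU3) had none in atrx-1 and 3 (GSTU15, GSTU21 and GSTF13) had none in the wild type. GSTU3 had 3 reads, all in wild-type library 1. The filter on low counts kept 37 genes for testing and removed 22, whose mean levels reached at most 3.07 CPM. Among the untested genes the groups did not overlap for GSTU6, at 1.65, 1.68 and 0.638 CPM in atrx-1 and 6.32, 5.46 and 2.61 CPM in the wild type. They also stood apart for AT5G45020, at 2.33, 5.05 and 4.78 CPM in atrx-1 and 2.11, 2.19 and 1.96 CPM in the wild type. Several of these values lie below or near 3 counts in their library.

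In edgeR's quasi-likelihood test none of the 37 tested genes passed an adjusted p of 0.05, where 0.116% of all 13819 tested features did, 16 lower and 0 higher in atrx-1. At an unadjusted edgeR p under 0.05 stood 12 members, or 32.4%, against 19.5% of all tested features. These were 11 lower genes (29.7% of those tested, against 10.9% of all tested features) and 1 higher gene, GSTF2 (2.70%, against 8.64%). Lower values in atrx-1 were found for 28 of the 37, or 75.7%, and for 48.8% of all tested features. The median log2 fold change was -0.39 over the members and 0.01 over all features. In 12 members, or 32.4%, every atrx-1 library lay below every wild-type library, against 11.4% of all features, and in none did every atrx-1 library lie above, against 12.2%. DESeq2 called 1 member, GSTU8, as lower, where it called 2.25% of the features with an adjusted p as lower and 0.579% as higher.

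Short genes as a whole had lower values in atrx-1, and the members are short. The median tested member was 957.5 nt long, and the median tested feature 1547.5 nt. Fold change and length were related across 13682 nuclear features (Spearman's rho 0.575), which share the same 6 libraries and are not independent replicates. In log2 units per doubling of length, the slope of a gene's level relative to its mean was 0.15, 0.16 and 0.16 in atrx-1 libraries 1, 2 and 3 and -0.23, -0.064 and -0.17 in wild-type libraries 1, 2 and 3. The sign of the slope thus follows genotype, so a trend from library preparation and one from genotype cannot be told apart. Removing the trend also removes any genotype difference that follows length. After removal of each library's trend on length, 26 of the 37 members were lower (70.3%, against 51.6% of all), with a median log2 fold change of -0.16 against -0.01. At an unadjusted p under 0.05, 6 members were then lower (16.2%, against 6.43% of all) and 2 higher, GSTF2 and DHAR3 (5.41%, against 4.38%), and 0 features passed after adjustment. The summed level of the tested members, on a scale of nuclear counts only, was then 3378 ± 247 CPM in atrx-1 and 3584 ± 196 CPM in the wild type (SD, n = 3 each), with overlap.

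**Figure D4:**
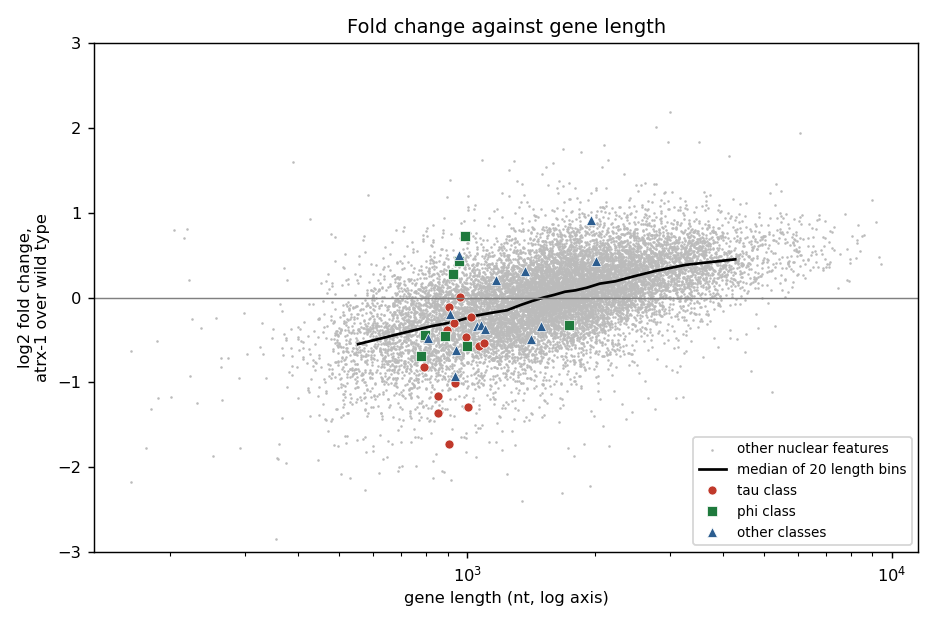
log2 fold change of atrx-1 over wild type against gene length (nt, log axis) for nuclear features between 150 and 10000 nt; grey points are other features, the line joins medians of 20 length bins, and coloured symbols are the 37 tested members. Most members lie near 1000 nt, where the median line is below 0, and tau genes (red) reach the lowest values.

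The tau class held the largest differences, with 14 of its 15 tested genes at lower values in atrx-1 (median log2 fold change -0.53), and 13 of 15 with the length trend removed (median -0.36). Over all tested features 48.8% were lower, and 51.6% with the length trend removed. GSTU8 (AT3G09270, chromosome 3, 2848289 to 2849289) was at 13.6, 15.1 and 14.4 CPM in atrx-1 libraries 1, 2 and 3 and at 49.96, 21.9 and 33.2 CPM in wild-type libraries 1, 2 and 3. The groups did not overlap, and the wild-type libraries differed among themselves by more than the mutant libraries did. The level of GSTU8 was 2.58-fold lower in atrx-1 (log2 fold change -1.37 ± 0.25, SE), and edgeR's adjusted p was 0.0536. It passed in DESeq2 (adjusted p = 0.00316) and with RLE size factors in edgeR (adjusted p = 0.0487). It also passed in edgeR without wild-type library 1, 2 or 3 (adjusted p = 0.0238, 0.0305 and 0.0404). Those fits called 378, 104 and 119 features in all. Without atrx-1 library 1, 2 or 3 it did not pass (edgeR adjusted p = 0.326, 0.321 and 0.107). These fits called 0, 0 and 3 features in all, and the log2 fold change of GSTU8 was -1.30, -1.38 and -1.36. With the length trend removed GSTU8 did not pass (log2 fold change -1.07 ± 0.23, SE, edgeR adjusted p = 0.256), where 0 features passed.

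Other low-level tau genes had values of similar size. GSTU1 (chromosome 2, 12631378 to 12632473) was at 3.84, 4.57 and 6.38 CPM in atrx-1 and at 15.05, 7.65 and 9.12 CPM in the wild type, with no overlap (log2 fold change -1.29 ± 0.31, SE, edgeR adjusted p = 0.0744). GSTU26 was at 8.86, 6.49 and 8.29 CPM in atrx-1 and at 19.3, 10.9 and 15.6 CPM in the wild type (-1.01 ± 0.24, SE, edgeR adjusted p = 0.0742). GSTU24, an enzyme that can detoxify the explosive trinitrotoluene, averaged 2.18 ± 0.331 CPM in atrx-1 and 4.67 ± 0.940 CPM in the wild type (SD, n = 3 each). These 3 genes were lower in every mutant library, as were 11.4% of all tested features. All 3 lie in tandem arrays, as do 38 of the 59 members. Their wild-type library 2 values rest on few reads, 7 for GSTU1, 10 for GSTU26 and 4 for GSTU24. With the length trend removed, log2 fold changes were -1.07 ± 0.31 for GSTU1, -0.76 ± 0.23 for GSTU26 and -0.85 ± 0.34 for GSTU24 (SE). GSTU4 had the lowest log2 fold change of the tested members, -1.72 ± 0.60 (SE), but only 35 reads in atrx-1 and 46 in the wild type, and its groups overlapped (0.961, 1.68 and 4.47 CPM in atrx-1, 9.63, 1.09 and 4.24 CPM in the wild type). The log2 fold change of GSTU4 was -0.94 when wild-type library 1 was dropped, -0.99 when atrx-1 library 1 was dropped and -2.34 when atrx-1 library 3 was dropped, and it passed in none of these fits. GSTU9 averaged 2.73 ± 0.479 CPM in atrx-1 and 4.04 ± 1.92 CPM in the wild type (SD, n = 3 each) and overlapped as well. Beside these values, the root marker TIP2;3 was at 3.84, 5.29 and 3.51 CPM in atrx-1 and at 7.22, 5.46 and 9.12 CPM in the wild type. It had 5 reads in wild-type library 2. The other root markers, PYK10, IRT1, COBL9 and NRT2.1, did not separate the groups, and NRT2.1 had no reads. The summed seed markers ranged from 12.8 to 29.1 CPM in atrx-1 and from 30.6 to 83.7 CPM in the wild type. The part of the root or seed markers in the tau values was not tested.

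The abundant tau genes differed less. GSTU19 had a log2 fold change of -0.46 ± 0.21 (SE, edgeR adjusted p = 0.26) and GSTU20 of -0.40 ± 0.19 (SE, edgeR adjusted p = 0.265), and with the length trend removed these were -0.25 ± 0.20 and -0.14 ± 0.19 (SE). GSTU16 (chromosome 1, 21936296 to 21937959) was at 27.8, 27.6 and 26.2 CPM in atrx-1 and at 33.7, 43.7 and 45.6 CPM in the wild type, with no overlap (-0.58 ± 0.19, SE, edgeR adjusted p = 0.122). With the length trend removed GSTU16 was at -0.39 ± 0.19 (SE). GSTU5 overlapped between groups (-0.30 ± 0.20, SE). GSTU17, which takes part in light and abscisic acid responses, was at 46.9, 48.3 and 32.5 CPM in atrx-1 and at 20.2, 37.2 and 69.1 CPM in the wild type. Its wild-type libraries enclosed the mutant values, and its log2 fold change was 0.01 ± 0.35 (SE), which moved to -0.39 when wild-type library 1 was dropped, to 0.70 when wild-type library 3 was dropped and to -0.0091 with RLE size factors. Genes such as GSTU13 were high in 1 library, at 34.0 CPM in wild-type library 1 against 13.1 and 13.4 CPM in wild-type libraries 2 and 3 and 15.8, 13.0 and 15.6 CPM in atrx-1. Wild-type library 1 was the highest of the 6 libraries in 18 of the 37 tested members, against 23.6% of all tested features, and atrx-1 library 3 the lowest in 10, against 13.4%. Wild-type library 1 also had the lowest leaf marker sum and the highest root and seed marker sums of the 6. Whether this bears on the members was not tested.

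**Figure D5:**
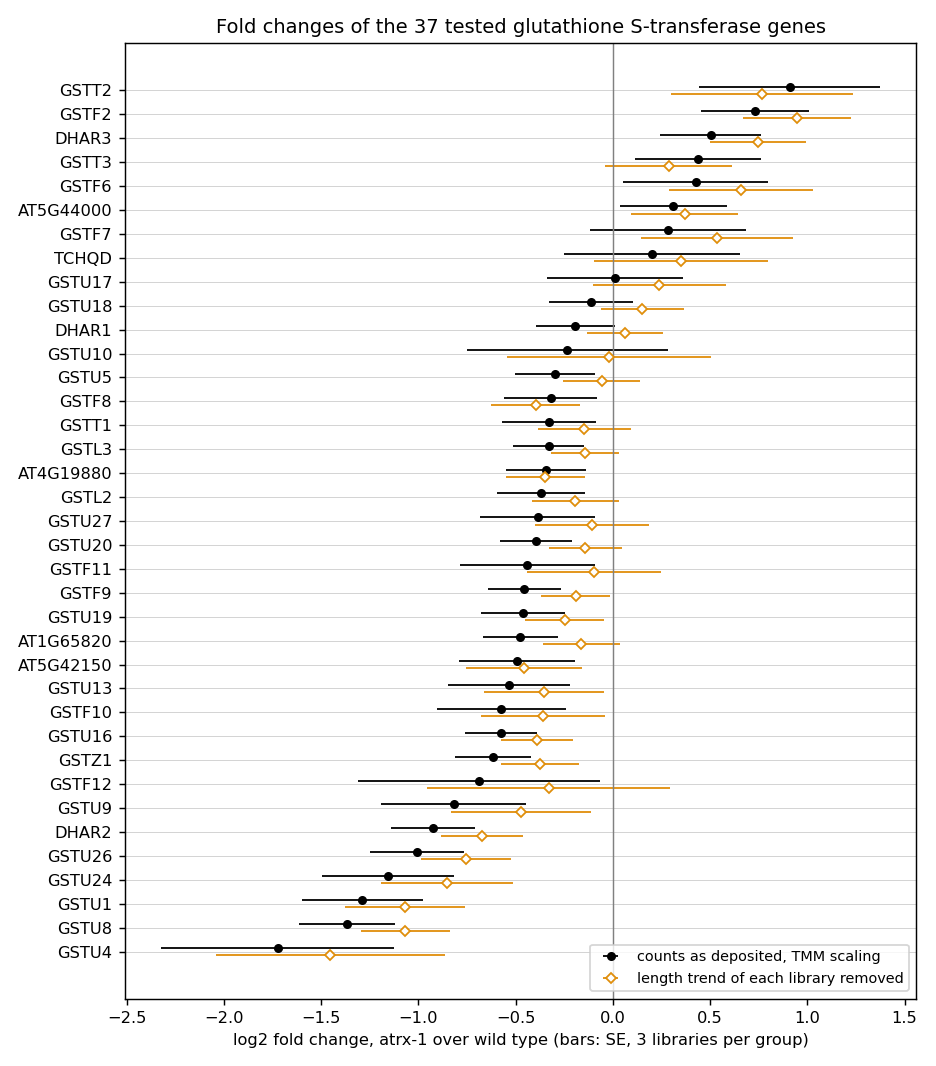
log2 fold change of atrx-1 over wild type (points) with SE (bars, 3 libraries per group) for the 37 tested members; black circles are the counts as deposited with TMM scaling and open orange diamonds the fit with each library's length trend removed. GSTU4, GSTU8 and GSTU1 lie below -1 in both fits, and GSTF2, GSTF6, GSTF7 and DHAR3 lie above 0 in both.

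The phi class was divided. GSTF2, GSTF6 and GSTF7 are induced by salicylic acid and pathogens, and GSTF6 acts in camalexin synthesis. GSTF2 (chromosome 4, 1110452 to 1111660) was at 87.5, 92.7 and 41.8 CPM in atrx-1 libraries 1, 2 and 3 and at 48.8, 49.2 and 37.8 CPM in wild-type libraries 1, 2 and 3. Its neighbour in rank, GSTF7, was at 74.3, 75.2 and 18.2 CPM in atrx-1 and at 58.1, 35.0 and 43.7 CPM in the wild type. GSTF6 was at 59.03, 59.6 and 18.2 CPM in atrx-1 and at 37.3, 44.8 and 24.8 CPM in the wild type. In all 3 genes atrx-1 libraries 1 and 2 were above every wild-type library, while atrx-1 library 3 was the lowest of the 6 for GSTF6 and GSTF7 and within the wild-type range for GSTF2. Over all features, atrx-1 libraries 1 and 2 were the most alike pair within a genotype. Their counts had a mean chi-square of 3.05 per feature, against 5.26 to 13.5 for the other pairs. Whether these libraries are independent of each other is not stated. The log2 fold changes were 0.73 ± 0.28 (SE, edgeR adjusted p = 0.177) for GSTF2, 0.43 ± 0.37 (SE) for GSTF6 and 0.28 ± 0.40 (SE) for GSTF7. With the length trend removed they were 0.95 ± 0.28, 0.66 ± 0.37 and 0.53 ± 0.39 (SE), and none passed. Without atrx-1 library 3, and with the length trend kept, they were 1.01 for GSTF2, 0.78 for GSTF6 and 0.69 for GSTF7, and none passed. GSTF3, the near copy of GSTF2, had 39 reads in atrx-1 and 10 in the wild type and was not tested.

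Other phi genes had values nearer to those of the tau class. GSTF9 had a log2 fold change of -0.46 ± 0.19 (SE, edgeR adjusted p = 0.206), and of -0.19 ± 0.18 (SE) with the length trend removed. GSTF10, its dehydration-induced neighbour on chromosome 2, was at 38.3, 32.0 and 47.5 CPM in atrx-1 and at 96.3, 36.1 and 36.8 CPM in the wild type. Its log2 fold change of -0.57 ± 0.33 (SE) rests on wild-type library 1 and was 0.095 without it. GSTF8, a chloroplast enzyme whose promoter is a widely used reporter of stress, was at 58.6, 58.9 and 50.7 CPM in atrx-1 and at 61.1, 102 and 53.4 CPM in the wild type, with overlap (-0.32 ± 0.24, SE). GSTF12, required for anthocyanin transport to the vacuole, was at 1.30, 1.20 and 6.06 CPM in atrx-1 and at 4.21, 5.46 and 2.28 CPM in the wild type, so that atrx-1 library 3 was the highest of the 6. These values rest on 19, 5 and 19 reads in atrx-1 and on 14, 5 and 7 reads in the wild type.

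Dehydroascorbate reductases, which regenerate the antioxidant ascorbate with glutathione, did not share a direction. DHAR2 (chromosome 1, 28250075 to 28251350) was at 8.44, 8.17 and 7.34 CPM in atrx-1 and at 17.2, 13.1 and 14.7 CPM in the wild type, 1.90-fold lower with no overlap (log2 fold change -0.92 ± 0.21, SE, edgeR adjusted p = 0.0701). The chloroplast enzyme DHAR3 (chromosome 5, 5483288 to 5485081) was at 32.9, 29.1 and 22.0 CPM in atrx-1 and at 27.7, 13.1 and 16.0 CPM in the wild type, where wild-type library 1 overlapped with the mutant (0.50 ± 0.26, SE, edgeR adjusted p = 0.308). Without that library DHAR3 was at 0.92 and passed (edgeR adjusted p = 0.0496), in a fit that called 168 of 14487 features as higher. With all 6 libraries and the length trend removed, DHAR2 was at -0.67 ± 0.21 and DHAR3 at 0.75 ± 0.25 (SE). DHAR1, the most abundant of the class, averaged 84.3 ± 12.02 CPM in atrx-1 and 95.98 ± 14.95 CPM in the wild type (SD, n = 3 each), and its log2 fold change was -0.19 ± 0.20 (SE) before and 0.062 ± 0.19 (SE) after the length trend was removed.

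Among the small classes, the zeta enzyme GSTZ1, a maleylacetoacetate isomerase of tyrosine breakdown, was at 20.04, 18.98 and 22.96 CPM in atrx-1 and at 25.9, 36.1 and 34.5 CPM in the wild type. Its groups did not overlap (log2 fold change -0.62 ± 0.20, SE, edgeR adjusted p = 0.12). The lambda gene GSTL3 also did not overlap, at 69.5, 74.7 and 75.3 CPM in atrx-1 and 84.3, 90.7 and 101 CPM in the wild type (-0.33 ± 0.18, SE). Of the theta genes, which stand side by side on chromosome 5, the most abundant, GSTT1, averaged 21.4 ± 1.36 CPM in atrx-1 and 27.5 ± 8.70 CPM in the wild type (SD, n = 3 each). The near copies GSTT2 and GSTT3 had log2 fold changes of 0.91 ± 0.47 and 0.44 ± 0.33 (SE) from 102 and 120 reads in atrx-1 and 18 and 29 reads in the wild type. Dropping 1 library at a time gave 0.61 to 1.86 for GSTT2, the highest of these when wild-type library 1 was dropped, and 0.12 to 0.79 for GSTT3. GSTT2 had no read in wild-type library 2, where 3 counts equal 3.28 CPM. GSTT2 and GSTT3 are the longest of the tested members, at 1961 and 2006 nt. The microsomal AT1G65820 was at 30.4, 29.8 and 29.3 CPM in atrx-1 and at 33.4, 42.6 and 49.2 CPM in the wild type, with no overlap (-0.48 ± 0.19, SE, edgeR adjusted p = 0.199). With the length trend removed, values were -0.38 ± 0.20 for GSTZ1, -0.14 ± 0.18 for GSTL3 and -0.16 ± 0.20 for AT1G65820 (SE). In that fit GSTT2 was at 0.77 ± 0.47 and GSTT3 at 0.29 ± 0.33 (SE). TCHQD averaged 3.63 ± 0.352 CPM in atrx-1 and 2.37 ± 2.27 CPM in the wild type (SD, n = 3 each). The most abundant family member without a class, AT4G19880, averaged 17.3 ± 2.19 CPM in atrx-1 and 20.98 ± 4.16 CPM in the wild type, and AT5G44000 averaged 9.60 ± 0.980 CPM in atrx-1 and 8.63 ± 3.18 CPM in the wild type (SD, n = 3 each).

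The authors' deposited table gave an adjusted p for 25 of the 59 genes and held 5 of them under 0.05, where it held 7.06% of all features with an adjusted p. In the authors' deposited table GSTU8 (log2 fold change -0.87, adjusted p = 0.0125), GSTU16 (-0.66, 0.0155), GSTZ1 (-0.68, 0.0323) and AT1G65820 (-0.58, 0.0447) were lower, against 4% of all features called lower. DHAR3 was higher in the authors' deposited table (0.74, adjusted p = 0.0385), against 3.06% called higher. None of these 5 passed in the edgeR test of all 6 libraries, and 4 of them passed when wild-type library 1 was left out. That fit called 378 of 14487 tested features, 210 lower and 168 higher, against 16 of 13819 with all 6 libraries. Without wild-type library 1 the edgeR adjusted p was 0.0238 for GSTU8, 0.0372 for GSTU16, 0.0361 for GSTZ1 and 0.0496 for DHAR3.

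Many tau and phi genes are known targets of TGA transcription factors, which bind TGACG. In the 250 bases before the annotated start of each gene in TAIR10.1, TGACG on either strand occurred in 17 of the 59 genes (28.8%), against 18.6% of 27444 protein-coding genes. It occurred more than once in 3 genes (5.08%, against 3.21%). Of the tested members with every atrx-1 library below every wild-type library, GSTU1 and GSTU24 held it. GSTU8, GSTU16, GSTU19, GSTU20, GSTU26, GSTF9, GSTL3, GSTZ1, DHAR2 and AT1G65820 did not, nor did GSTF2, GSTF6 and GSTF7. A link between the motif and the differences was not tested. GSTU1 and GSTU9 are shown because they hold the motif more than once and their windows overlap no other annotated gene (5′ to 3′, minus strand, TGACG or its reverse complement CGTCA in capitals). The windows lie at chr2:12632539-12632788 for GSTU1 and at chr5:25089627-25089876 for GSTU9.
GSTU1: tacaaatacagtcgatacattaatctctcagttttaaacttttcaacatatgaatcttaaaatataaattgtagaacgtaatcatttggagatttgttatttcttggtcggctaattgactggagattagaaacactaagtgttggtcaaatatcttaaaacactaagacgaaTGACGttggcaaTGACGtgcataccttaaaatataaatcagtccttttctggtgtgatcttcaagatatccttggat
GSTU9: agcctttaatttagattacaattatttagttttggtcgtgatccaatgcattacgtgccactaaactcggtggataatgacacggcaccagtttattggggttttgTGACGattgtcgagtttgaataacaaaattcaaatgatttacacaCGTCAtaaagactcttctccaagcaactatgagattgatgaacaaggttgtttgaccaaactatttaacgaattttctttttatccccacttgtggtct
The motif starts at -77 and -65 relative to the start of GSTU1, both on the gene's strand, and at -144 and -99 of GSTU9, on opposite strands. Of the regulators known to act through this motif, the TGA factors TGA2, TGA3, TGA5 and TGA6 had overlapping groups. SCL14, a GRAS protein that works with TGA factors in detoxification, was at 22.7, 20.9 and 23.3 CPM in atrx-1 and at 8.73, 20.8 and 13.7 CPM in the wild type (log2 fold change 0.78 ± 0.26, SE, edgeR adjusted p = 0.127, and 0.48 ± 0.25, SE, with the length trend removed). Over all 6 genes of that list, which also held ANAC102, 1 had higher and 5 lower values in atrx-1, and none passed. Among all tested features 48.8% had lower values.

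Genes that make, recycle and use glutathione were read beside the family. For comparison, 48.8% of all tested features had lower values in atrx-1, and 51.6% with the length trend removed. Of 10 genes of glutathione synthesis and recycling, 9 were in the table and 8 were tested, 6 had higher and 2 lower values in atrx-1, and none passed (median log2 fold change 0.12, and -0.064 with the length trend removed). Phytochelatin synthase PCS1, which builds metal-binding peptides from glutathione, was at 11.4, 12.0 and 11.2 CPM in atrx-1 and at 22.3, 21.9 and 15.6 CPM in the wild type, with no overlap (-0.76 ± 0.21, SE, edgeR adjusted p = 0.0898). With the length trend removed PCS1 was at -0.86 ± 0.21 (SE). Of 8 glutathione peroxidases 7 were tested, all with lower values (median -0.38), and 4 of the 7 with the length trend removed (median -0.01). GPX2 was at 58.7, 58.9 and 58.7 CPM in atrx-1 and at 108, 106 and 111 CPM in the wild type. Its libraries lay close together within each genotype, and it missed the threshold in edgeR (-0.88 ± 0.18, SE, adjusted p = 0.0583) but passed in the authors' deposited table (adjusted p = 0.000572). With the length trend removed GPX2 was at -0.60 ± 0.17 (SE, edgeR adjusted p = 0.28).

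Partners in the handling of foreign compounds were mostly scarce. Of 15 listed genes, 8 were tested, 3 with higher and 5 with lower values, and none passed in edgeR (median log2 fold change -0.20). With the length trend removed 2 were higher and 6 lower (median -0.26). Among all tested features 48.8% were lower, and 51.6% with the length trend removed. ABCC1 and ABCC2, vacuolar transporters of glutathione conjugates, had higher values in every mutant library, as did 12.2% of all tested features. ABCC1 was at 64.2, 55.7 and 56.8 CPM in atrx-1 and at 36.1, 36.1 and 38.4 CPM in the wild type (0.68 ± 0.18, SE, edgeR adjusted p = 0.083). It passed in the authors' deposited table (log2 fold change 0.59, adjusted p = 0.0323). ABCC2 was at 31.3, 28.8 and 27.4 CPM in atrx-1 and at 17.2, 14.2 and 18.9 CPM in the wild type (0.77 ± 0.19, SE, edgeR adjusted p = 0.0746). These genes are 5286 and 5484.5 nt long, and with the length trend removed their log2 fold changes were 0.17 ± 0.17 and 0.24 ± 0.19 (SE).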

How the data were processed

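Per the file headers, the authors deposited raw counts of reads for every gene and library, and these counts were the input of every test. They also deposited a normalized signal, with and without division by gene length in kb, per the file headers; the ratio of both gave gene length. From the authors' deposited comparison came a log2 fold change with its p-value, raw and adjusted. The submitters' processing notes name TAIR10 and, with no roles, Bowtie2 2.1.0, DESeq, DESeq2 1.6.3, TopHat2 2.0.14, CASAVA 1.8.2 and HTSeq 0.6.1.

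Groups and replicate numbers came from the sample titles. Genotype alone was fitted with the quasi-likelihood functions of edgeR 4.0.16 (R 4.3.3) after TMM scaling and filterByExpr (10 counts, total of 15). The p-values were adjusted by Benjamini-Hochberg over every feature tested. SE was derived from the F statistic. CPM per kb divides CPM by gene length. The length fit took offsets from a loess curve (span 0.3) on log2 length for each library, over nuclear features. The curve was fitted to each gene's log2 CPM minus its mean over the libraries. DESeq2 1.42.0, RLE size factors, nuclear features only, no filter, a stricter filter (a mean of 5 CPM, with 1 CPM throughout either genotype), a replicate block and leaving out each library were alternatives, and leaving out libraries together with the length fit was chosen after seeing the data. The scripts were tested on simulated data. Intervals were not computed for counts of 0, and the floor of 3 counts covers counting error only.

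Of the table's nuclear features, 23391 had a locus tag in TAIR10.1, and 99.996% of these overlapped that locus in place (43.5% shared an end), so TAIR10.1 was used for sequence, overlap and alignment. Coordinates of genes are the table's, and those of printed sequences are TAIR10.1. Genes named were those past a threshold, the 10 most abundant, the 8 highest and 8 lowest log2 fold changes, the most abundant of each class and 5 known genes, with others chosen after their values were seen. Members and lists were chosen with earlier results of these data known.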

Additional observations from a re-analysis of the deposited data

How the results depend on the processing

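The count of features past the threshold, 16 in edgeR, was 210 in DESeq2, 38 with RLE size factors, 592 with no low-count filter, and 0 with the length trend removed (1479 features at an unadjusted p under 0.05). It ranged from 0 to 378 when 1 library was left out, and from 0 to 38 when this was combined with the length fit, an alternative chosen after seeing the data. With a replicate block the count was 34, and 1 when the block was combined with the length fit; the block called none of the 59 genes, and same-numbered libraries share only a number, with correlations of their deviations of 0.064, 0.057 and -0.079. The count of members, 0 in edgeR, was 1 in DESeq2 and 1 with RLE size factors (GSTU8 in both). With no filter it was 6 of 59 (GSTU1, GSTU4, GSTU6, GSTU8, GSTU26 and DHAR2), where 592 of 23043 features passed. The count of members ranged from 0 to 4 when 1 library was left out. It was 4 of 39 without wild-type library 1 (GSTU8, GSTU16, GSTZ1 and DHAR3), where 378 of 14487 features passed. The cause of these shifts was not tested.

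Of 593 values for 30 named members, 558 kept direction and side of the threshold, 13 newly passed it and 22 changed direction, in 9 members and never past the threshold. DHAR1 was 0.062 with the length trend removed and 0.065 with the replicate block added, and GSTU17 was -0.0091 with RLE size factors. Leaving out 1 library gave -0.84 to 0.095 for GSTF10, -0.39 to 0.70 for GSTU17 and -0.049 to 0.82 for TCHQD. Leaving out 1 library in the length fit gave turned values of 0.065, 0.081, 0.16 and 0.19 for DHAR1, 0.057 and 0.067 for GSTU5, 0.30 for GSTF10, 0.017 for AT1G65820, -0.18 for GSTU17, 0.13 for GSTT1, 0.019 and 0.27 for GSTF12 and -0.018 for GSTT3. The log2 ratio of the summed level, -0.30, was -0.13 as a share of nuclear counts and -0.085 with the length trend removed, and ranged from -0.35 to -0.23 when 1 library was left out. Depth limits the low genes most, since 3 counts in wild-type library 2 equal 3.28 CPM.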
